A study of Homo sapiens with 2 samples.

Results

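The boundaries described here are those between chromatin domains of HepG2 cells that lay 1 to 5 bins of 40 kb apart in a library from fatty acid-treated cells and a library from mock-treated cells. The deposited domain lists of both libraries were used on 13 chromosomes (1, 2, 4, 6, 7, 8, 9, 11, 12, 16, 17, 19 and 20). Starts and ends of the domains in a list were pooled, and positions 40 kb or less apart were merged into 1 boundary. A mock boundary was a member when the nearest PA+OA boundary lay 40 to 200 kb away. This held for 314 of the 1691 mock boundaries of these chromosomes (18.6%, 95% Wilson interval 16.8 to 20.5). The whole mock list has 2519 boundaries. Another 1121 mock boundaries (66.3%) overlapped a PA+OA boundary after merging, called the same position below, and 256 (15.1%) had none within 200 kb. The members were chosen by the measured distance between the lists, so their number and distances are a description and carry no test.

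The study measured chromosome contacts by Hi-C in HepG2, a widely used cell line that grew out of a human liver tumour. The PA+OA library came from cells given palmitic acid at 120 µM together with oleic acid at 240 µM over 48 h, and the mock library from cells given DMSO diluted 1 in 1000 for the same time. The labels describe the treatment medium as holding 1% fatty acid-free BSA, and whether the mock medium held it too is not clear from them. With 1 library a group there is no replicate check, no test of the treatment was possible, and "moved" below means only that the 2 lists place a boundary differently. Intervals cover counting error only. The lists hold positions and no levels, so hepatocyte markers could not be read, and the sources used here do not give the number of contacts behind each list.

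A chromatin domain, often called a topologically associating domain, is a stretch of chromosome whose sequences touch each other more often than they touch the next stretch. Many boundaries form where the ring-shaped cohesin complex, which extrudes loops of chromatin, is halted by the DNA-binding protein CTCF, and others lie at active promoters. Enhancers mostly act on promoters of their own domain, so the side of a boundary on which a gene lies sets which neighbours share its domain. A gene is said here to change side when the middle of its RefSeq record lies between the PA+OA and the mock position of a boundary. The start site of such a gene can lie outside that stretch, on the same side in both lists.

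Of 331 genes from 17 lists of liver, lipid, inflammation and chromatin genes on these chromosomes, 4 changed side (1.21%), against 1.5% of all protein-coding genes. Their promoters are shown because these are the listed genes that the PA+OA list places with other neighbours, and each start site lies between the PA+OA and the mock position. The windows run from 250 bases before to 50 bases after the start site (RefSeq, GRCh38.p14), written 5′ to 3′ on the gene's strand. Capitals mark matches to the searched motifs, which were a CTCF-like core (CCA, NN, AG, NN and GGC in one run), the GC box (GGGCGG), the CCAAT box (CCAAT), the TATA box (TATAAA) and the E-box (CACGTG) bound by SREBF and MYC proteins, on both strands, with overlapping matches joined.
ELOVL2, chr6:11044256-11044555, minus strand: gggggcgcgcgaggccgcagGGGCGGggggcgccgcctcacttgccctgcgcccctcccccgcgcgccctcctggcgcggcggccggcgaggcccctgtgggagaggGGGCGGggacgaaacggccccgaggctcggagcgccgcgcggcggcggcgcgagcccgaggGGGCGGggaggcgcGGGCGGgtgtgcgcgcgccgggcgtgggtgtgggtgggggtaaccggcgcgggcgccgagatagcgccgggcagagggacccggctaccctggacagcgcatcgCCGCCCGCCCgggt
HSD3B7, chr16:30984957-30985256, plus strand: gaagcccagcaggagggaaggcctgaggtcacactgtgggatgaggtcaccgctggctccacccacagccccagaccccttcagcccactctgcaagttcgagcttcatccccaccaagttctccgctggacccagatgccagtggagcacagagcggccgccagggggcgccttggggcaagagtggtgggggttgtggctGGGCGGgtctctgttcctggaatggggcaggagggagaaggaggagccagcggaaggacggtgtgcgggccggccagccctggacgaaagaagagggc
IL1B, chr2:112836730-112837029, minus strand: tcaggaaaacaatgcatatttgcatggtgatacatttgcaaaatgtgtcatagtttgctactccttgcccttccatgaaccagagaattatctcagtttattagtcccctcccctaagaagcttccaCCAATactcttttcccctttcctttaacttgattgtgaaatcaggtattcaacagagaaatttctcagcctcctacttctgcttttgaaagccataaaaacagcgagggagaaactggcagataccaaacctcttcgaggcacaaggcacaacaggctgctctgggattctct
NCAPH, chr2:96335516-96335815, plus strand: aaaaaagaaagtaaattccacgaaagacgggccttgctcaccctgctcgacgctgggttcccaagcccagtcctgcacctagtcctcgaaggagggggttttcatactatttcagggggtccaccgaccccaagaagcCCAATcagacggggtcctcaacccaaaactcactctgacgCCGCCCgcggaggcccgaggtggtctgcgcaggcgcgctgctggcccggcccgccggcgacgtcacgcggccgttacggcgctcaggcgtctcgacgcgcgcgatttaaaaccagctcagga
The ELOVL2 window held 6 GC boxes and 83.7% G and C, and the HSD3B7 window 1 GC box and 66.3%. The IL1B window, at 42.3% G and C, held 1 CCAAT box and no GC box. The NCAPH window held 1 GC box and 1 CCAAT box. The exact letters of the CTCF-like core were in none of these 4 windows. Matches with a differing letter were not searched, so a similar run can be present. A match is a description of the letters and not a binding site.

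Over the moved boundaries of the 12 chromosomes with promoters in the RefSeq table, 146 start sites lay between the PA+OA and the mock position, against 10638 protein-coding start sites read. The remaining chromosome holds 47 of the 314 moved boundaries. The CTCF-like core was in 6 of the 146 promoters (4.11%) and in 2.85% of all promoters. The GC box was in 45.2% of the 146 (37.4 to 53.3), below the 58.6% of all. The CCAAT box was in 43.2% against 36.7%, the TATA box in 12.3% against 10.2%, and the E-box in 13.7% against 8.86%. Median G and C content was 60.8% in the 146 promoters and 62.7% in all. The intervals of the 146 took in the share of all promoters for the CTCF-like core, the CCAAT box and the TATA box. They lay apart from it for the GC box, while for the E-box the lower bound of 9.05% was just above it. Neighbouring genes share stretches and families, so these promoters are not independent.

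MicroRNAs, short RNAs that pair with messenger RNAs mainly through a seed of bases 2 to 8 and lower their output, also lay in these stretches. The RefSeq gene table held 18 miRNA genes between the PA+OA and the mock positions, 1.48% of the 1215 on these chromosomes, against 1.5% of protein-coding genes. Mature sequences were at hand for 14 of these hairpins, 18 mature miRNAs on 6 chromosomes. All 18 seeds differed, so no seed family was shared. The boundary lay at the higher coordinate in PA+OA for 2 hairpins and at the lower for 12, where all moved boundaries with a direction split 148 to 157. Some hairpins share a stretch, so these 14 are not independent. The 2 arms of MIR26A2 and the 2 arms of MIR3925 are shown, the first because miR-26a is abundant in liver and the second because its hairpin lies in the same stretch as CDKN1A, described below. The seeds are in capitals (RefSeq, GRCh38.p14).
hsa-miR-26a-5p, chr12:57824658-57824679, minus strand: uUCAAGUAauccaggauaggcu
hsa-miR-26a-2-3p, chr12:57824620-57824641, minus strand: cCUAUUCUugauuacuuguuuc
hsa-miR-3925-5p, chr6:36622480-36622501, minus strand: aAGAGAACugaaaguggagccu
hsa-miR-3925-3p, chr6:36622446-36622466, minus strand: aCUCCAGUuuuaguucucuug
The boundary beside MIR26A2 on chromosome 12 was at 57800000 in PA+OA and at 57840000 in mock, a difference of 1 bin. The boundary beside MIR3925 on chromosome 6 was at 36600000 in PA+OA and at 36720000 in mock. In both cases the hairpin was on the higher side of the boundary in PA+OA and on the lower side in mock.

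The PA+OA and the mock list were close in size on these chromosomes. The PA+OA list held 1791 domains and 1688 boundaries over 1852.08 Mb, and the mock list 1811 domains and 1691 boundaries over 1852.16 Mb. Domains of zero length, which mark a single position, numbered 82 in PA+OA and 100 in mock. Every position was a multiple of 40 kb, so 1 bin is the smallest difference the lists can show. Counted from the other side, 325 of the 1688 PA+OA boundaries (19.3%) lay 40 to 200 kb from a mock boundary.

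Short distances were the most common. A distance of 1 bin, 40 kb, held for 151 of the 314 moved boundaries (48.1%, 42.6 to 53.6). There were 53 at 80 kb, 56 at 120 kb, 38 at 160 kb and 16 at 200 kb, so 163 (51.9%) had moved by more than 1 bin. Just outside the upper limit, 15 mock boundaries lay 240 kb from the nearest PA+OA boundary. Examples with many genes nearby were the mock boundary of chromosome 17 at 81520000, whose nearest in PA+OA was at 81760000, and that of chromosome 12 at 122760000, nearest to 122520000 in PA+OA. A further mock boundary on chromosome 17 was at 1920000, and its nearest in PA+OA at 2160000. In each of these cases the PA+OA boundary was nearer to another mock boundary. Just inside the limit, at 200 kb, a boundary of chromosome 20 was at 63080000 in PA+OA and at 63280000 in mock.

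The shifts ran in both directions about equally. Of 305 moved boundaries with a single nearest PA+OA boundary, 148 lay at the higher coordinate in PA+OA (48.5%, 43.0 to 54.1) and 157 at the lower coordinate (51.5%, 45.9 to 57.0). The interval includes an even split. The other 9 had PA+OA boundaries equally far on both sides and have no direction. At 1 bin, 67 of 149 lay higher in PA+OA (45.0%, 37.2 to 53.0), and at 120 kb 31 of 53 did (58.5%, 45.1 to 70.7). The split differed between chromosomes, for example 10 higher and 23 lower in PA+OA on chromosome 6, and 13 higher and 6 lower on chromosome 12.

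**Figure D1:**
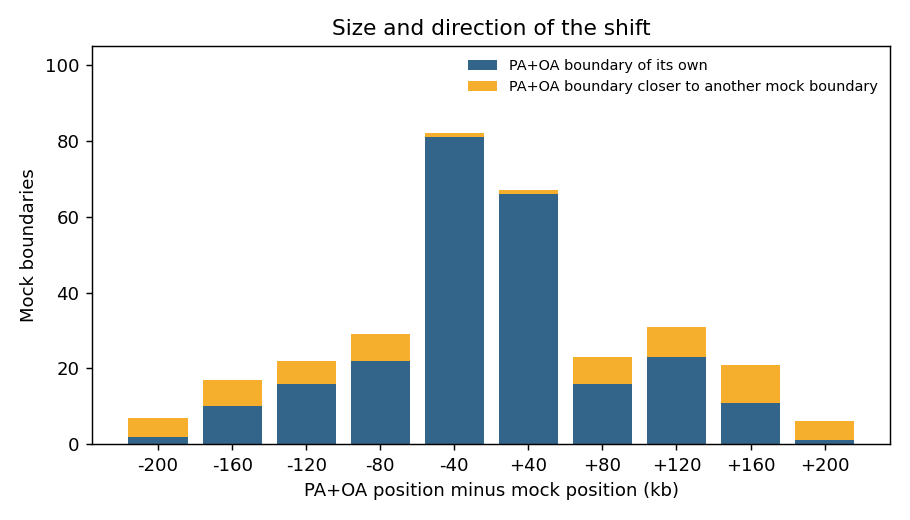
Number of moved boundaries (y axis) by the shift in kb of the PA+OA position relative to the mock position (x axis), for the 305 with a single nearest PA+OA boundary. The 82 at -40 kb and 67 at +40 kb are the tallest bars, and the counts to the left and right of 0 add up to 157 and 148.

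For most of the moved boundaries the PA+OA boundary had no nearer mock boundary, which is called a partner of its own below. This held for 252 of 314 (80.3%, 75.5 to 84.3). The share was 98.7% at 40 kb (149 of 151), 71.7% at 80 kb, 73.2% at 120 kb, 55.3% at 160 kb and 18.8% at 200 kb (3 of 16). Just outside the limit, at 240 kb, it was 6.67% (1 of 15). Of the 62 without a partner of their own, 46 pointed to a PA+OA boundary that, with merged positions counted, overlapped another mock boundary. The other 16 pointed to one that was nearer to another mock boundary. For those 46 the nearest PA+OA boundary was thus already matched, though one farther off could still be unmatched. This was so on chromosome 2 for the mock boundary at 215120000. Among own-partner members with a direction, 117 lay higher and 131 lower in PA+OA.

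**Figure D2:**
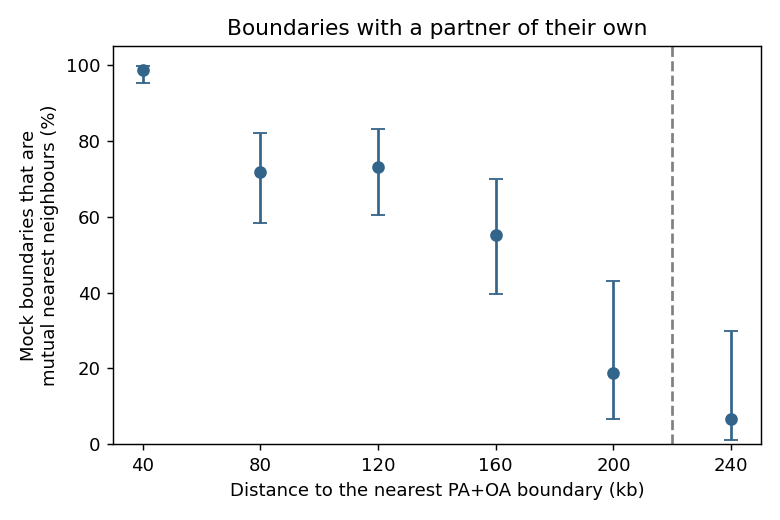
Share of mock boundaries, in percent, whose nearest PA+OA boundary was a partner of their own (y axis), by the distance between the positions in kb (x axis), with 95% Wilson intervals. The share is 98.7% at 40 kb and 18.8% at 200 kb, with 240 kb shown as the first distance outside the limit.

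A stricter view counted all boundaries between the nearest boundaries on either side that both lists shared. In 64 cases (20.4%) exactly 1 PA+OA and 1 mock boundary stood there, so that one position could be set against the other. No PA+OA boundary stood there in 25 cases (7.96%). PA+OA had more boundaries than mock in 78 (24.8%) and fewer, though at least 1, in 84 (26.8%), and in 62 (19.7%) both lists had the same number above 1. For 1 boundary no shared boundary stood on 1 side. For the 63 of these single cases with a direction, the nearest PA+OA boundary lay higher in 36 (57.1%, 44.9 to 68.6) and lower in 27. In some of them the nearest was a shared boundary and not the single PA+OA boundary between. On chromosome 8, the mock boundary at 22520000 was nearest to the shared one at 22600000. The split is therefore not that of the single pairs themselves.

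The share of boundaries that had moved differed between chromosomes. It was 37.8% on chromosome 9 (14 of 37, 24.1 to 53.9), 27.7% on chromosome 16 (23 of 83) and 24.9% on chromosome 8 (47 of 189, 19.2 to 31.5). Chromosome 1 had 11.3% (20 of 177, 7.43 to 16.8) and chromosome 12 had 13.9% (19 of 137). On chromosome 19 the mock list had 20 boundaries and 0 of them had moved, which with so few allows a share of up to 16.1%. The remaining chromosomes lay between 14.9% and 21.3%. Chromosome 8, with the most moved boundaries, is the one whose promoters and mature miRNAs were not used here.

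**Figure D3:**
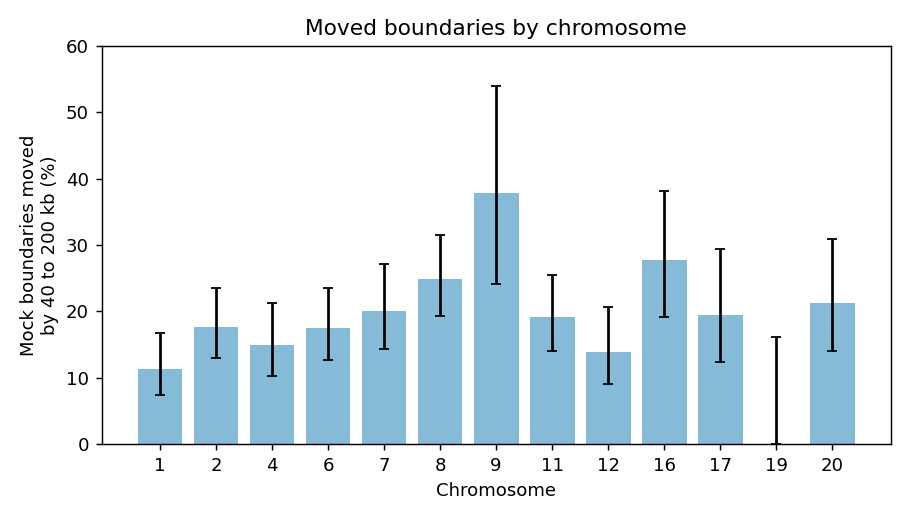
Share of mock boundaries that had moved by 40 to 200 kb, in percent, for each of the 13 chromosomes, with 95% Wilson intervals. Chromosome 9, at 37.8%, stands above chromosome 1, at 11.3%, and the intervals of most others overlap.

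The share also varied along chromosomes. Over the 159 windows of 10 Mb with 5 or more mock boundaries, the median share moved was 16.7%, with quartiles of 8.33% and 26.1%, and 31 windows had 0 moved. In 4 windows at least 50% had moved. The windows with the highest numbers are named as a description: 11 of the 17 mock boundaries between 30 and 40 Mb of chromosome 16 had moved, and 9 of 15 between 50 and 60 Mb of chromosome 11. On chromosome 9, 9 of 18 between 60 and 70 Mb had moved, and on chromosome 20, 8 of 18 between 30 and 40 Mb. The longest gene-free stretch of each chromosome held 58 mock boundaries, of which 31 had moved (53.4%, 40.8 to 65.7), against 283 of 1633 elsewhere (17.3%, 15.6 to 19.2). Such stretches include centromeres and large repeats as a rule, where short reads are hard to place. Their part in the result was not tested beyond the counts given with and without them.

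Moved boundaries had fewer genes around them than boundaries at the same position. No protein-coding gene had its middle within 200 kb for 99 of the 314 moved (31.5%, 26.6 to 36.9), against 120 of the 1121 at the same position (10.7%, 9.03 to 12.7). For the 256 mock boundaries farther than 200 kb from any PA+OA boundary it was 98 (38.3%, 32.5 to 44.4). Protein-coding genes within 200 kb had a median of 2 for moved boundaries, 3 for those at the same position and 1 for the far ones. Without the longest gene-free stretches the share of moved boundaries with no gene was 24.0%. The share was 26.5% for shifts of 1 bin and 36.2% for shifts of 2 to 5 bins.

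Read the other way, boundaries with no gene nearby stood apart from all the rest, and the classes with genes differed little from each other. Of 317 mock boundaries with no gene within 200 kb, 31.2% had moved (26.4 to 36.5) and 37.9% were at the same position. With 1 to 2 genes 15.6% had moved, with 3 to 5 genes 14.3%, and with 6 or more 17.4% (13.9 to 21.5). At the same position were 73.3%, 73.8% and 71.1% of these. A zero-length domain entry stood at 29 of the moved boundaries in the mock list (9.24%) at 48 of those at the same position (4.28%) and at 18 of the far ones (7.03%, 4.49 to 10.8).

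**Figure D4:**
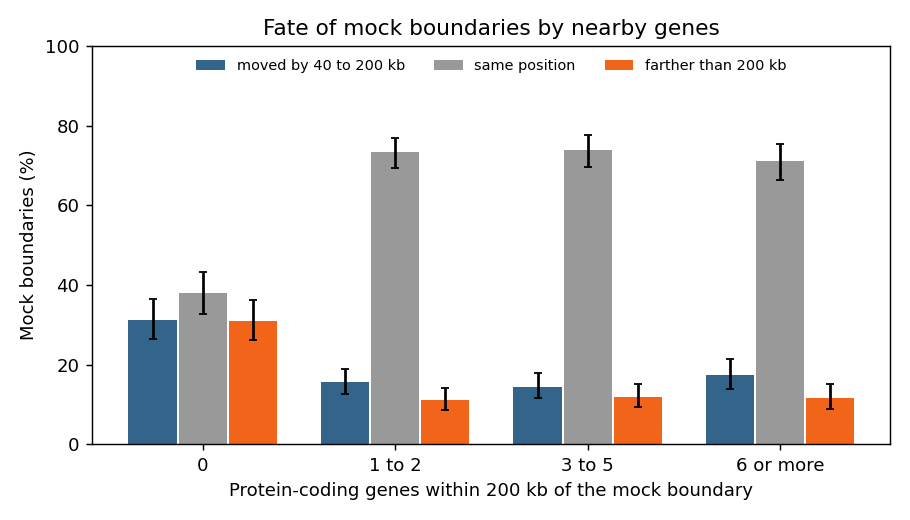
Share of mock boundaries in percent (y axis) that had moved, were at the same position or lay farther than 200 kb from a PA+OA boundary, by how many protein-coding genes lay within 200 kb (x axis), with 95% Wilson intervals. Boundaries with no gene nearby had moved in 31.2% of cases, and the other classes in 14.3% to 17.4%.

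The PA+OA position lay inside a protein-coding gene for 136 of the moved boundaries (43.3%) and the mock position for 126 (40.1%). The mock position did so for 569 of the 1121 boundaries at the same position (50.8%) and for 102 of the 256 far ones (39.8%), close to the share of the moved ones. Of the 305 with a direction, 37 cut a gene only at the PA+OA position, 28 only at the mock position, 94 at both and 146 at neither. In 44 (14.4%, 10.9 to 18.8) both positions lay inside the same gene, so that the boundary moved within a gene body. These were 43 genes, with LRRC37A2 and NSF at 1 boundary counted once, by the record of LRRC37A2. Their median length was 373.1 kb, against 21.9 kb over all 13902 protein-coding genes of the chromosomes. Long genes leave room for both positions.

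The longest of these genes were CSMD1, a complement regulator, at 2059.55 kb, and EYS, a photoreceptor matrix protein, with the boundary of chromosome 6 at 64360000 in PA+OA and 64440000 in mock. LRP1B, a large lipoprotein receptor relative, held its boundary of chromosome 2 at 141680000 in PA+OA and 141720000 in mock. DNMT3A, a DNA methyltransferase of 114.7 kb, held one at 25280000 in PA+OA and 25240000 in mock on chromosome 2. These 4 were chosen after their values were seen.

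Where a boundary with a partner of its own moved, it entered the longer of the flanking mock domains in 139 of 240 cases with domains of unequal length (57.9%, 51.6 to 64.0). The interval lies just above an even split, and a longer domain also has more room for a shifted position. For these 240 the stretch was a median of 8.33% of the mock domain it lay in, with quartiles of 3.90% and 16.01%. The share cannot pass 50% here, because the PA+OA boundary would then be nearer to the domain's other edge. Without a partner of its own, a member's stretch could be a whole mock domain, as the 160 kb on chromosome 12 described below were. The shorter flanking mock domain had a median of 320 kb at moved boundaries, 440 kb at those of the same position and 520 kb at the far ones, which the distance limit itself partly sets.

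The stretches between the PA+OA and the mock positions of the 305 boundaries add up to 24.92 Mb and hold 206 protein-coding genes. This is 1.5% of the 13760 protein-coding genes lying within both lists, at 8.27 genes per Mb, against 7.43 per Mb over the 1851.72 Mb both lists cover. Boundaries with a partner of their own account for 149 genes, 1.08% of all, at 8.49 per Mb. Boundaries at the higher coordinate in PA+OA had 99 genes between the positions (0.719%) and those at the lower 107 (0.778%). By distance the density was 11.1 genes per Mb at 40 kb, 9.86 at 80 kb, 7.39 at 120 kb, 4.61 at 160 kb and 10 at 200 kb. The density moves with the counting rule, from 5.14 per Mb for whole gene records to 13.6 for any overlap, so no excess over the chromosomes is read from it.

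Most shifts carried no gene across. In 191 of 305 stretches no protein-coding gene changed side, 65 held 1, 27 held 2 and 22 held 3 or more, with at most 8. Other kinds of gene record in the stretches were 157 long non-coding RNAs, at 6.30 per Mb against 6.34 over the chromosomes, and 148 pseudogenes, at 5.94 against 5.20 per Mb. Transcribed pseudogenes numbered 24 (0.963 against 0.441 per Mb) and transfer RNA genes 11 (0.441 against 0.204 per Mb). There were 9 small nucleolar RNA genes (0.361 against 0.376 per Mb), 3 small nuclear RNA genes (0.120 against 0.0675 per Mb) and 0 of 33 ribosomal RNA genes.

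Beside boundaries with a partner of their own, 149 genes changed side, of which 71 had the larger domain in PA+OA, 68 the larger in mock and 10 equal ones. The median domain of these was 640 kb in PA+OA and 560 kb in mock. All 57 other genes had the larger domain in PA+OA. The choice of members fixes this, since their nearest PA+OA boundary is closer to another mock boundary, which keeps the mock domain short. No direction is read from it. Of all 206 genes that changed side, 66 shared no protein-coding neighbour between their PA+OA and their mock domain. Some of these had no other protein-coding gene in 1 of the domains, as EDN1 in mock and RPS12 in PA+OA, and so could share none.

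Among the listed genes, 4 of 331 on these chromosomes changed side (1.21%), against 1.5% of all protein-coding genes. They came from 4 lists, with 1 gene each of 17 for fatty acid synthesis and desaturation, 16 for bile acid synthesis and transport, 26 for inflammation and 14 for chromatin architecture. The other 13 lists had 0. They cover cholesterol synthesis and uptake, endoplasmic reticulum stress, fatty acid oxidation, fatty acid uptake, secreted hepatocyte proteins, hepatocyte transcription factors, lipid droplets, lipoproteins, liver cancer genes, markers of other cell types, nuclear receptors, oxidative stress, and triglyceride and phospholipid synthesis. The count is close to the share over all genes, and the lists as a whole do not stand out.

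ELOVL2, an elongase of long polyunsaturated fatty acids on chromosome 6 (10980759 to 11044305), lay beside a boundary at 10920000 in PA+OA and at 11080000 in mock, a shift of -160 kb. Its PA+OA domain spanned 640 kb, 10920001 to 11560000, and held SMIM13, ERVFRD-1 and NEDD9, a scaffold protein of cell adhesion, which its mock domain did not. The mock domain spanned 240 kb, 10840001 to 11080000, and held GCM2, a parathyroid transcription factor, instead. SYCP2L was a neighbour in both. The PA+OA boundary was nearer to another mock boundary, yet 1 PA+OA and 1 mock boundary stood between the shared boundaries at 10840000 and 11560000.

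HSD3B7, an enzyme of bile acid synthesis from cholesterol on chromosome 16 (30985207 to 30989147), lay beside a boundary at 30960000 in PA+OA and at 31040000 in mock. It had 13 other protein-coding genes in its domain in each library, and 3 of them were shared, among them SETD1A, a histone methyltransferase that changed side along with it. The 5′ end of the SETD1A record lay below both positions, so only part of that gene changed side. In PA+OA the domain of HSD3B7 spanned 240 kb and held VKORC1, the target of warfarin. In mock it spanned 320 kb and held SRCAP, a chromatin remodeller, and PHKG2, a liver subunit of phosphorylase kinase. This boundary had a partner of its own.

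IL1B, the inflammatory cytokine interleukin-1 beta on chromosome 2 (112829751 to 112836779), lay beside a boundary at 112960000 in PA+OA and at 112800000 in mock. In PA+OA it shared a domain of 360 kb with IL1A, CKAP2L, NT5DC4, SLC20A1 and IL37. In mock its domain spanned 6880 kb and held 29 other genes, among them IL1RN, the interleukin-1 receptor antagonist, and the IL36 cytokines. IL37 was the neighbour the PA+OA and the mock domain shared. IL1B was thus on the side of IL1A in PA+OA and on the side of IL1RN in mock, and PA+OA had 2 boundaries where mock had 1 between shared boundaries.

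NCAPH, a subunit of the chromosome-condensing complex condensin I on chromosome 2 (96335766 to 96377091), lay beside a boundary at 96360000 in PA+OA and at 96280000 in mock. The gene record crosses the PA+OA position. Its domain spanned 1280 kb with 21 other genes in PA+OA and 240 kb with 3 other genes in mock. SNRNP200, a spliceosome helicase, and ITPRIPL1 were neighbours in both, and GPAT2, an acyltransferase of glycerolipid synthesis, was a neighbour in PA+OA. This was a single pair between shared boundaries.

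**Figure D5:**
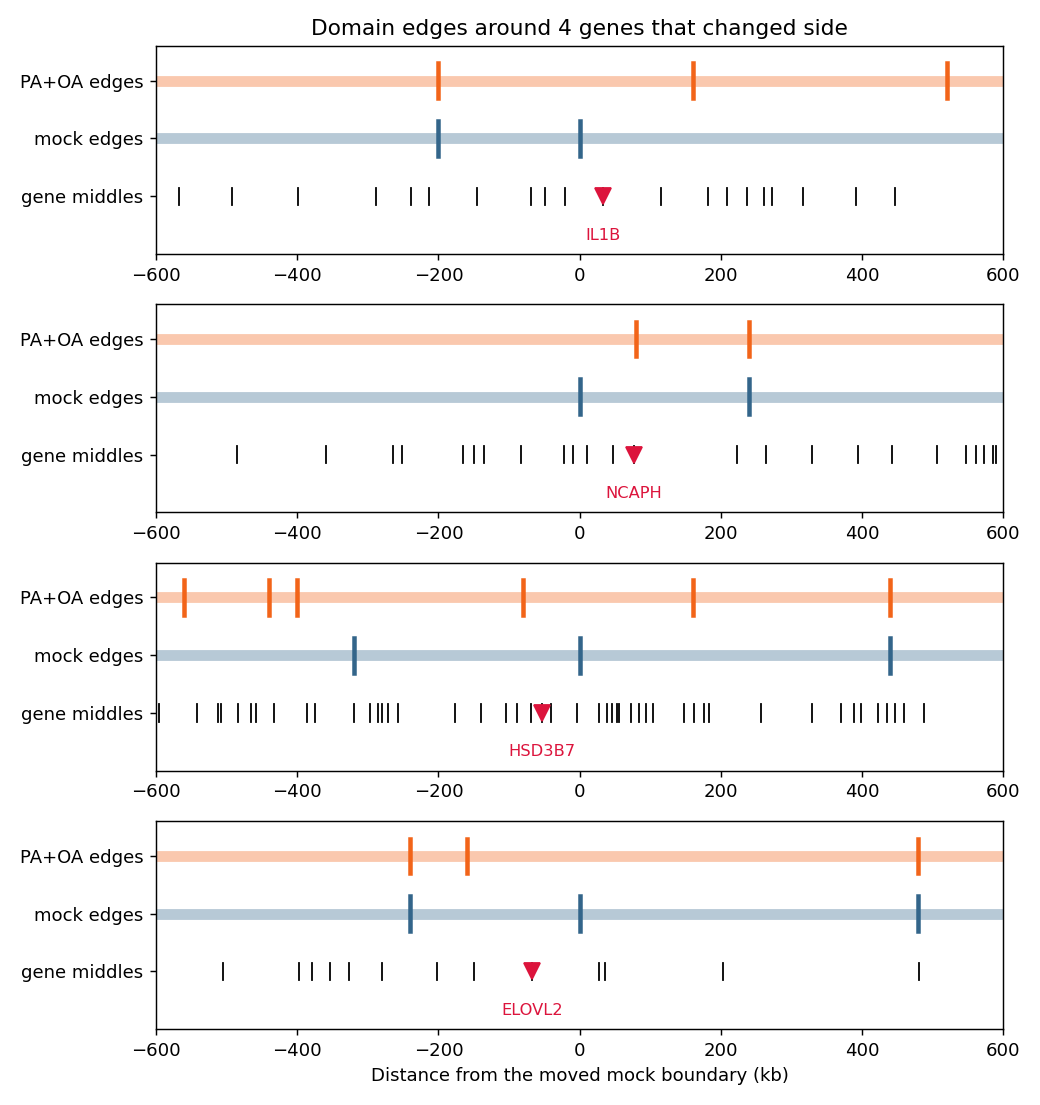
Positions of PA+OA and mock boundaries and of protein-coding genes around the boundaries beside HSD3B7, IL1B, ELOVL2 and NCAPH, in kb from the mock boundary (x axis). In each panel the middle of the listed gene lies between the PA+OA and the mock position.

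A boundary can also move without a listed gene crossing it, while its domain still changes. Of 13741 protein-coding genes in mock domains, 3441 (25.0%) lay in a domain with at least 1 moved edge and 281 (2.04%) in one with both edges moved. Of the listed genes it was 62 of 327 (18.96%) and 5. By list, at least 1 edge had moved for 8 of 26 inflammation genes (30.8%) and 5 of 17 genes of fatty acid synthesis (29.4%). It was 5 of 22 for cholesterol synthesis, 5 of 22 for fatty acid oxidation, 4 of 18 for fatty acid uptake and 5 of 23 for other cell types. It was 5 of 25 for lipoproteins, 4 of 21 for oxidative stress, 3 of 16 for bile acids, 4 of 23 for liver cancer and 3 of 18 for nuclear receptors. It was 2 of 13 for chromatin architecture, 2 of 16 for hepatocyte transcription factors, 2 of 16 for triglyceride and phospholipid synthesis, 3 of 25 for secreted proteins, 2 of 18 for endoplasmic reticulum stress and 1 of 13 for lipid droplets. Genes of a list can share a domain, as IL1A, IL1B and IL1RN do in part, so these counts are not independent.

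Domains with an edge of no direction, which the gene counts above include, were left out here. Both edges had moved for 67 of the other mock domains. For 8 both edges met the same PA+OA boundary, and for 13 another PA+OA boundary stood between the 2 partners, so that PA+OA split the stretch. In the other 46 the partners enclosed 1 PA+OA domain. Of these, 17 were wider in PA+OA, 9 narrower, 10 slid by the same distance and direction, and 10 moved the same way by unequal distances. Both edges had partners of their own for 12 of the wider, 8 of the narrower and 9 of the slid domains.

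The listed genes in mock domains with both edges moved were CYP7A1, HSD3B7, GC, CXCL10 and YAP1. CYP7A1, the rate-limiting enzyme of bile acid synthesis, lay on chromosome 8 in a domain of 640 kb in PA+OA, 57920000 to 58560000, and of 1400 kb in mock, 57760000 to 59160000. Its upper mock edge was paired with a PA+OA boundary at 59000000, beyond a further PA+OA boundary at 58560000. GC, the vitamin D-binding protein of plasma, lay on chromosome 4 in a domain of 600 kb in PA+OA, 71760000 to 72360000, and of 800 kb in mock, 71720000 to 72520000. The GC record crosses the lower PA+OA edge. CXCL10, a chemokine that draws T cells, lay with CXCL9 and CXCL11 on chromosome 4 in a domain of 280 kb in PA+OA, 75880000 to 76160000, and of 160 kb in mock, 75960000 to 76120000. YAP1, the effector of Hippo signalling, lay on chromosome 11 in a domain of 640 kb in PA+OA, 102040000 to 102680000, and of 520 kb in mock, 102000000 to 102520000.

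Other domains slid as a whole, and these were chosen after their values were seen. The domain of DNMT3B, a DNA methyltransferase, on chromosome 20 ran from 32600000 to 32800000 in PA+OA and from 32640000 to 32840000 in mock. The DNMT3B record crosses the upper PA+OA edge. On chromosome 9, a domain of 3200 kb with 18 genes in mock, among them GAS1 and the stress gene GADD45G, ran from 86960000 to 90160000 in PA+OA and from 86920000 to 90120000 in mock. Near the HSD3B7 boundary, a domain of 320 kb with 14 genes ran from 30640000 to 30960000 in PA+OA and from 30720000 to 31040000 in mock, so its edges kept 320 kb apart.

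The 12 boundaries taken up next had the most protein-coding genes between their positions among the 305 with a direction, with ties in number settled by the longer shift. The tied boundaries of chromosome 16, given below, have up to 13 genes on 1 side and are not among them. The first was on chromosome 4, at 9400000 in PA+OA and at 9280000 in mock, where 8 genes of the USP17-like deubiquitinase family, near-identical copies, changed side. Their domain was 280 kb in both libraries, with 20 other genes in PA+OA and 8 in mock. On chromosome 11, at 71600000 in PA+OA and at 71480000 in mock, the keratin-associated proteins KRTAP5-7, KRTAP5-8, KRTAP5-9, KRTAP5-10 and KRTAP5-11 changed side, in domains of 640 kb in PA+OA and 600 kb in mock. Reads in such copies are hard to place, and how they were handled is not stated in the sources used here.

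A histone cluster of chromosome 6 was the third gene family. The boundary was at 27120000 in PA+OA and at 27160000 in mock, and 5 histone genes changed side, among them H4C9, H2BC12, H2AC11 and H2AC12. Their domain spanned 680 kb with 9 other genes in PA+OA, against 160 kb with the 4 other histone genes in mock. The lower edge of that mock domain also lay 40 kb lower in PA+OA, at 26960000 against 27000000 in mock.

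On chromosome 16 a gene-rich region held several moved boundaries in a row. At 30080000 in PA+OA and at 30120000 in mock, YPEL3, GDPD3, TBX6, a T-box transcription factor, and MAPK3, the kinase ERK1, changed side, as did PPP4C. The 5′ end of the PPP4C record lay below both positions, and that of MAPK3 above both. The domain that held the middles of these genes spanned 400 kb in PA+OA and 240 kb in mock. It had 17 other genes each, of which 4 were common, and these were the genes that changed side together. Mock boundaries at 29880000 and 30280000 were equally far, 200 kb, from PA+OA boundaries on either side and have no direction. MAZ, a zinc-finger transcription factor of the chromatin architecture list, lies between the PA+OA boundary at 29680000 and the mock boundary at 29880000, and because of the tie it was not counted as changing side.

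Further gene-rich cases had a partner of their own. On chromosome 1, at 145840000 in PA+OA and at 145920000 in mock, ANKRD35, ITGA10, an integrin chain, PIAS3, an inhibitor of STAT signalling, and NUDT17 changed side, in domains of 1120 kb in PA+OA and 600 kb in mock. On chromosome 2, at 27400000 in PA+OA and at 27360000 in mock, ZNF513, SNX17, a sorting protein of endosomes, EIF2B4, a subunit of the translation factor eIF2B, and PPM1G, a phosphatase, changed side, and for each of them the other 3 were its common neighbours in the PA+OA and the mock domain. The 5′ end of the PPM1G record lay above both positions. On chromosome 20, at 63080000 in PA+OA and at 63280000 in mock, YTHDF1, a reader of methylated adenosine in RNA, BIRC7, an inhibitor of apoptosis, and NKAIN4 changed side. Their domain was 880 kb in PA+OA and 2000 kb in mock.

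The other two members at 200 kb with a partner of their own carried no gene. They were on chromosome 11, at 106640000 in PA+OA and at 106440000 in mock, and on chromosome 7, at 61120000 in PA+OA and at 61320000 in mock.

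In 4 of the 12, the PA+OA boundary was closer to another mock boundary, and mock had 1 boundary more than PA+OA between the shared ones. On chromosome 12, PA+OA had a boundary at 14880000, where mock had it and another at 14720000, and WBP11, a splicing factor, SMCO3, C12orf60 and the histone gene H2AJ lay in a domain of 1640 kb in PA+OA and of 160 kb in mock. On chromosome 2, TUBA3E, a tubulin, MZT2B, VMA22 and IMP4 lay in a domain of 960 kb in PA+OA, bounded at 130360000, and of 200 kb in mock, bounded at 130160000 too. On chromosome 11, ACCSL, C11orf96, ALKBH3, a DNA repair enzyme, and ACCS lay in a domain of 720 kb in PA+OA, where the boundary was at 43880000, and of 200 kb in mock, which had another at 44080000. Also on chromosome 11, TECTA, a protein of the inner ear, and TBCEL lay in 680 kb in PA+OA and 160 kb in mock, with boundaries at 120960000 in PA+OA and at 121160000 in mock. Its stretch held 3 genes. So did one of the same length on chromosome 7, at 140720000 in PA+OA and at 140520000 in mock, with DENND2A, ADCK2 and NDUFB2, a subunit of respiratory complex I. Another mock boundary, at 140680000, stood inside that chromosome 7 stretch, 40 kb from the PA+OA boundary. In mock it placed DENND2A in a domain of 160 kb, and ADCK2 and NDUFB2 in one of 2440 kb.

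Several single genes beside moved boundaries were picked out after their values were seen. CDKN1A, the cell cycle inhibitor p21, lay beside the boundary of MIR3925 on chromosome 6, in a domain of 280 kb with 3 other genes in PA+OA and of 920 kb with 14 in mock. EDN1, the vasoconstrictor endothelin-1, lay beside a boundary at 12280000 in PA+OA and at 12160000 in mock, in 720 kb in PA+OA and 480 kb in mock. SGMS2, a sphingomyelin synthase, lay beside a boundary of chromosome 4 at 107880000 in PA+OA and at 107760000 in mock, and shared none of its neighbours, 2 in PA+OA and 8 in mock. The EDN1 and the SGMS2 record each cross the PA+OA position of their boundary. IDO1, a tryptophan-degrading enzyme, lay with IDO2 on chromosome 8 in 1080 kb in PA+OA and 200 kb in mock, where both lists had a boundary at 40080000 and mock another at 39880000.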

How the data were processed

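Hi-C of HepG2 cells gave 1 library per group, 2 in all, and each library was grouped by its title. The authors deposited, for each library, a list of domains by chromosome, start and end (unit other: positions in base pairs). FastQC and HiC-Pro were used with build hg38, per the submitters' processing notes. The domain caller, the normalization and the depth were not given in the sources used here. They can shift positions by bins.

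Here, positions 40 kb or less apart were merged, each mock boundary was paired with the nearest PA+OA boundary, and a protein-coding gene was assigned by the midpoint of its RefSeq record (GRCh38.p14). Shares carry 95% Wilson intervals. Python 3.11.15, NumPy 2.4.6, pandas 2.3.3, SciPy 1.17.1 and matplotlib 3.10.9 were used. The pairing code was run on simulated lists whose boundaries stood too far apart for an ambiguous partner. Close or tied boundaries, as in the real lists, were not simulated. With 1 library a group no test was made. The boundaries named are the 12 with the most genes between their positions and those 200 kb apart with a partner of their own. The genes named are the listed genes that changed side and up to 4 others, nearest to the centre, in each such stretch. Other genes are said to be chosen after their values were seen, or are neighbours of these. The 17 gene lists, the members and the 13 chromosomes were chosen with earlier results of these data known. Alternatives varied the merging distance, both distance limits, the pairing, the starting list, the gene position and the chromosomes used. No genome sequence was used, so boundaries themselves were not read.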

Additional observations from a re-analysis of the deposited data

How the results depend on the processing

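The share of boundaries higher in PA+OA stayed within 46.9% and 51.9% in all 24 alternatives. The number of moved boundaries ran between 163 and 427. It was 427 of 2519 when all chromosomes of the lists were used. With a lower limit of 80 kb it was 163, of which 63.2% had a partner of their own. Genes that changed side numbered 128 when the whole gene record had to lie inside and 340 with any overlap. Gene density was then 5.14 and 13.6 per Mb, 5.86 by start site, which the promoter table gives for fewer genes, and 11.1 when starting from the PA+OA list, for which the cause was not tested. Moved boundaries without a gene nearby came to 24.0% when the longest gene-free stretches were left out, an alternative chosen after seeing the data that removes boundaries without genes by construction. The shifts beside ELOVL2, HSD3B7, IL1B and NCAPH were kept in 29, 31, 31 and 29 of 32 alternatives. They were lost (a value of 0) where that chromosome was left out, and for ELOVL2 also with mutual nearest pairs alone or starting from the PA+OA list, and for NCAPH also by the higher end of its record or its whole record. Depth per list is unknown, and 1 library a group leaves its spread unmeasured. No paired analysis was possible because each group has 1 library.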
